A study of Danio rerio with 8 samples.

Results

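The chemokine Cxcl12 and its receptors were followed in zebrafish heart ventricles 2 weeks after surgery. The genes were those whose symbol in the array's annotation is cxcl12a, cxcl12b, cxcr4a, cxcr4b or ackr3b. All 5 genes were on the array, as 6 probe sets of 15502, among 8793 genes with a single symbol. Total RNA came from 4 pools of resected ventricles and 4 pools of control ventricles, each pool holding 50 ventricles, and each pool was run on its own Affymetrix array. The labels give no strain, age or transgene, and do not say what was done to the control animals. The study's title names injured hearts and repair, and the comparison asks which transcripts differ in ventricles that had lost tissue.

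Cxcl12 is a secreted chemokine that attracts cells carrying Cxcr4, a receptor that signals through inhibitory G proteins. Ackr3, formerly called Cxcr7, binds the same ligand and removes it by uptake instead of signalling through G proteins, and so shapes the gradient that migrating cells read. Zebrafish have duplicated genes for the ligand, for Cxcr4 and for Ackr3, and of the Ackr3 genes only ackr3b is followed here. The pair cxcl12a and cxcr4b guides germ cells and the lateral line primordium in the embryo. In the zebrafish heart, published work has placed cxcl12a in the epicardium and cxcr4b in heart muscle cells during regeneration, and cxcr4a in the endothelium of growing coronary vessels with cxcl12b as its ligand. Which cells carried each transcript was not measured here. In whole ventricles, a change in the number of cells of one type and a change in RNA per cell cannot be told apart.

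Transcripts of both ligands and of 1 of the 3 receptors rose in resected ventricles. The ligand gene cxcl12a was 2.89-fold higher and its duplicate cxcl12b 2.13-fold higher. Among the receptors, cxcr4b was 1.74-fold higher, while cxcr4a at 1.21-fold and the scavenger receptor gene ackr3b at 1.14-fold did not pass the test. The test was limma over all probe sets with Benjamini-Hochberg adjustment, and the threshold was an adjusted p of 0.05. It called 3 of the 5 genes, all higher. Over all 8793 genes it called 8.05%, with 5.05% higher and 3% lower. For 3 of the 5 genes the values of resected and control arrays were fully apart, as they were for 15.7% of all genes. These genes and the lists below were chosen with earlier results of these data known. The shares called among them are thus a description and not a test against all genes. The values of single arrays given below are RMA expression (log2). Changes are differences of group means on that scale, resected minus control, each with a standard error (SE) from limma.

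**Figure D1:**
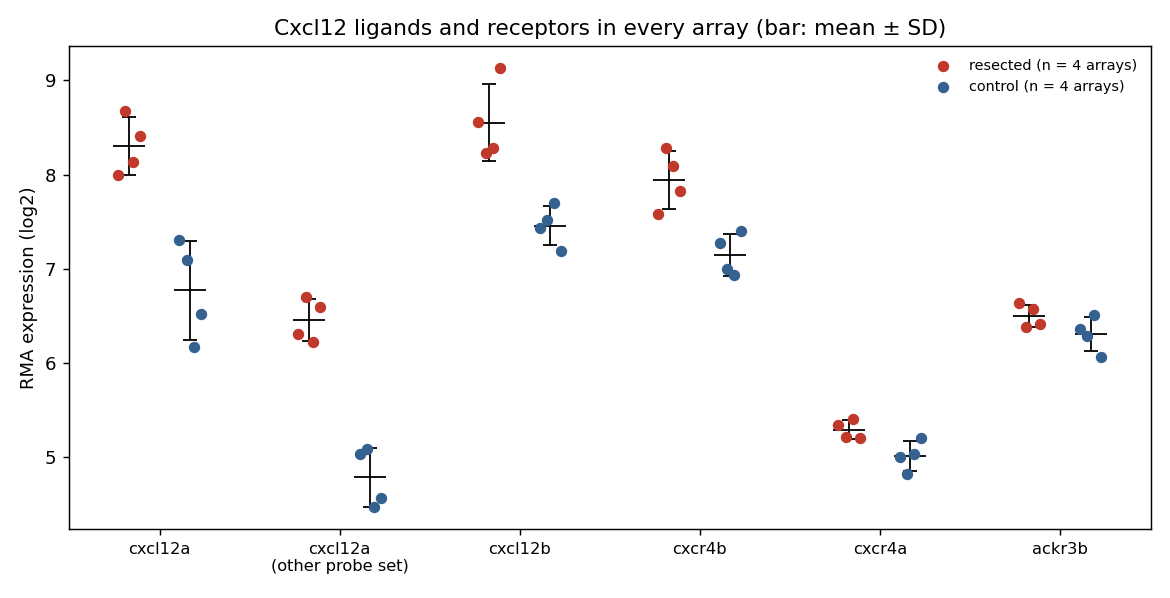
RMA expression (log2) of the 6 probe sets in each array, resected arrays left of control arrays, with bars for the mean and SD of 4 arrays. Resected and control points are apart for both cxcl12a probe sets, cxcl12b and cxcr4b, and overlap for cxcr4a and ackr3b.

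The ligand gene cxcl12a has a pair of probe sets, and the brighter one represents it. It read 7.99, 8.67, 8.13 and 8.41 in resected replicates 1 to 4, against 7.31, 7.09, 6.17 and 6.52 in control replicates 1 to 4. Every resected array lay above every control array, and the control arrays were spread more widely, with replicates 1 and 2 high and replicates 3 and 4 low. The means were 8.30 ± 0.31 in resected and 6.77 ± 0.52 in control ventricles (SD, n = 4 each). The change was 1.53 ± 0.24 (SE; 95% interval 0.996 to 2.06; limma adjusted p = 0.00459). It ranked 43 of 8793 genes by size of increase. The other cxcl12a probe set read 6.31, 6.70, 6.22 and 6.60 in resected arrays, against 5.04, 5.09, 4.47 and 4.57 in control arrays. It showed the same split of the control arrays, and its change of 1.67 ± 0.16 had the smaller error (limma adjusted p = 0.000259).

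The ligand gene cxcl12b, measured by 1 probe set, read 8.56, 8.23, 8.28 and 9.13 in resected arrays, against 7.43, 7.52, 7.70 and 7.19 in control arrays. Here it was the resected arrays that were spread, with replicate 4 well above the other 3, and the groups did not overlap. The means were 8.55 ± 0.41 in resected and 7.46 ± 0.21 in control ventricles (SD, n = 4 each), a change of 1.09 ± 0.19 (95% interval 0.67 to 1.51; limma adjusted p = 0.00711). It ranked 112 by size of increase. The duplicates did not share their extremes: control replicate 3 was the lowest control array for cxcl12a and the highest for cxcl12b, and resected replicate 2 was the highest resected array for cxcl12a and the lowest for cxcl12b.

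The receptor gene cxcr4b, measured by 1 probe set, read 7.58, 8.28, 8.09 and 7.82 in resected arrays, against 7.27, 7, 6.93 and 7.40 in control arrays. The groups came close, with resected replicate 1 just above control replicate 4, but did not overlap. The means were 7.95 ± 0.31 in resected and 7.15 ± 0.22 in control ventricles (SD, n = 4 each), a change of 0.79 ± 0.16 (95% interval 0.44 to 1.15; limma adjusted p = 0.0155). It ranked 229 by size of increase. Without resected replicate 3 the change was 0.75 ± 0.18 and the call was lost (limma adjusted p = 0.0518).

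The other Cxcr4 gene, cxcr4a, measured by 1 probe set, read 5.34, 5.22, 5.41 and 5.21 in resected arrays, against 5, 4.83, 5.04 and 5.21 in control arrays. Only control replicate 4 reached the resected values. The change was 0.28 ± 0.10 (95% interval 0.06 to 0.49), with an adjusted p = 0.121 by limma. The readings lay below the array medians of 5.78 to 5.82. No detection call comes with RMA, and a low reading is no measure of absence.

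The scavenger receptor gene ackr3b, measured by 1 probe set, read 6.64, 6.38, 6.57 and 6.42 in resected arrays, against 6.36, 6.29, 6.51 and 6.07 in control arrays. The groups overlapped through control replicate 3. The change was 0.19 ± 0.11 (95% interval -0.05 to 0.43, limma adjusted p = 0.315), so an increase of up to 0.43 lies within the interval of this fit. Its duplicate ackr3a could not be matched to a probe set, so these values do not cover scavenging of the ligand as a whole.

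**Figure D2:**
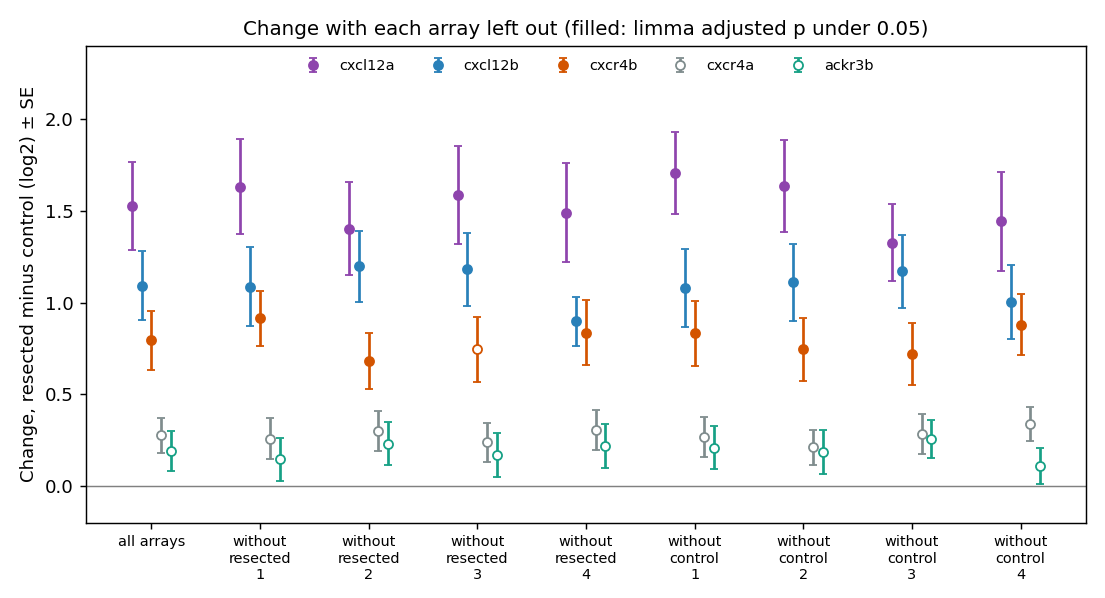
Change of each gene (resected minus control, log2, with the SE of the limma fit) with all arrays and with each array left out in turn. Both ligands stay past the threshold in all 8 cases and cxcr4b in 7, while cxcr4a and ackr3b stay short of it in all 8.

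With each of the 8 arrays left out in turn, the change of cxcl12a lay between 1.33 and 1.71 and that of cxcl12b between 0.9 and 1.2, each past the threshold every time. The change of cxcr4b lay between 0.68 and 0.92. For cxcr4a it lay between 0.21 and 0.34 (adjusted p = 0.0858 to 0.269, limma) and for ackr3b between 0.11 and 0.26 (0.193 to 0.591).

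Whether genes of the system changed unequally was tested on the difference between a pair of genes within each array, over 3 pairs. An exact two-sided permutation test over the 70 splits of the arrays cannot give a p below 0.0286. For cxcl12a minus ackr3b the differences were 1.35, 2.29, 1.56 and 1.99 in resected arrays, against 0.94, 0.80, -0.34 and 0.44 in control arrays. The ligand gene cxcl12a thus gained 1.34 on ackr3b, in 4 of 4 resected arrays above all control arrays (exact permutation p = 0.0286, or 0.0857 adjusted over the 3 pairs, which does not pass). With the difference entered as a row of the limma fit, the interval was 0.72 to 1.96 and the adjusted p over the 3 pairs was 0.00206. That fit draws each variance toward those of single probe sets, while a difference carries the noise of both genes. Its intervals for the pairs may thus be too narrow and its p-values too small.

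For cxcr4b minus cxcr4a, the duplicated receptors, the differences were 2.24, 3.07, 2.69 and 2.61 in resected arrays, against 2.27, 2.17, 1.89 and 2.2 in control arrays. Resected replicate 1 fell among the controls and the other 3 lay above them. The gain of cxcr4b over cxcr4a was 0.52 (exact permutation p = 0.0571, or 0.0857 adjusted over the pairs). The genes also differed in level, with cxcr4a below the array medians and cxcr4b above them. Whether the low level of cxcr4a had a part in its smaller change was not tested. The limma fit of the same difference, with the limit given above, put it at 0.52 ± 0.16. The interval was 0.17 to 0.87 and the limma adjusted p = 0.0123, so the call for this pair depends on the test.

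For cxcl12a minus cxcl12b, the duplicated ligands, the differences were -0.58, 0.45, -0.16 and -0.72 in resected arrays, against -0.12, -0.42, -1.53 and -0.68 in control arrays. The groups overlapped, with control replicate 3 below and resected replicate 2 above all arrays of the other group. The difference of 0.44 in favour of cxcl12a had an exact permutation p = 0.4, and by limma the interval ran from -0.25 to 1.13, so that neither an equal rise nor a larger rise of cxcl12a is outside it.

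**Figure D3:**
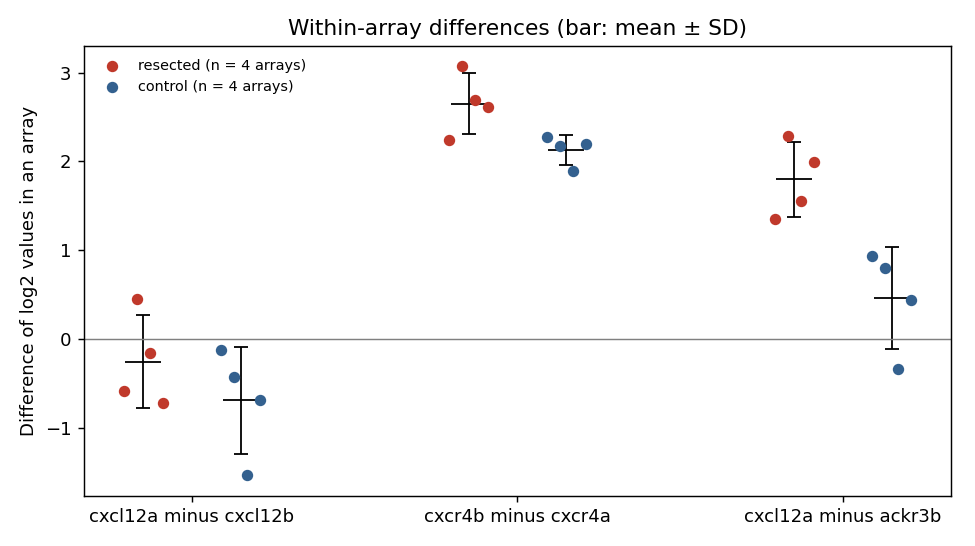
Difference of the log2 values of a pair of genes in each array, for 3 pairs, with resected arrays left of control arrays and bars for the mean and SD of 4 arrays. The groups are apart for cxcl12a minus ackr3b, touch at 1 resected array for cxcr4b minus cxcr4a, and overlap for cxcl12a minus cxcl12b.

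The rest of the chemokine system was read from a list of 60 other ligand genes and 30 other receptor genes, of which 9 ligands and 1 receptor could be matched to a probe set. Of the 9 ligands 3 rose and 0 fell, beside 8.05% of all genes called, and the median change was 0.24, against -0.04 over all genes. The counterpart of mammalian CCL25, ccl25b, read 8.67, 9.24, 9.05 and 9.37 in resected arrays, against 8.24, 8.43, 7.77 and 7.36 in control arrays, without overlap. Its change of 1.14 ± 0.23 (limma adjusted p = 0.0154) was close in size to that of cxcl12b. The CC chemokine gene ccl38a.5 rose by 0.80 ± 0.18 (adjusted p = 0.0277). The cytokine gene mif, whose mammalian product binds CXCR4 and CD74, rose by 0.66 ± 0.11 (adjusted p = 0.00638). Leaving out resected replicate 2 ended the call for ccl25b (adjusted p = 0.057, limma) and left 1 called ligand of the 9. The call for ccl38a.5 ended without any 1 of 5 of the 8 arrays (adjusted p = 0.0601 to 0.0905), while that for mif held each time.

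The other 6 ligands did not pass. The nearest was ccl19a.1, the counterpart of a mammalian CCR7 ligand, at 0.61 ± 0.17 (limma adjusted p = 0.0593). The remaining changes were 0.24 ± 0.12 for ccl44, 0.06 ± 0.12 for cxl34b.11, 0.03 ± 0.10 for ccl34b.1, -0.13 ± 0.17 for cxcl14 and -0.24 ± 0.12 for ccl27a. The receptor gene cxcr3.3 was at -0.05 ± 0.13 (adjusted p = 0.857).

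**Figure D4:**
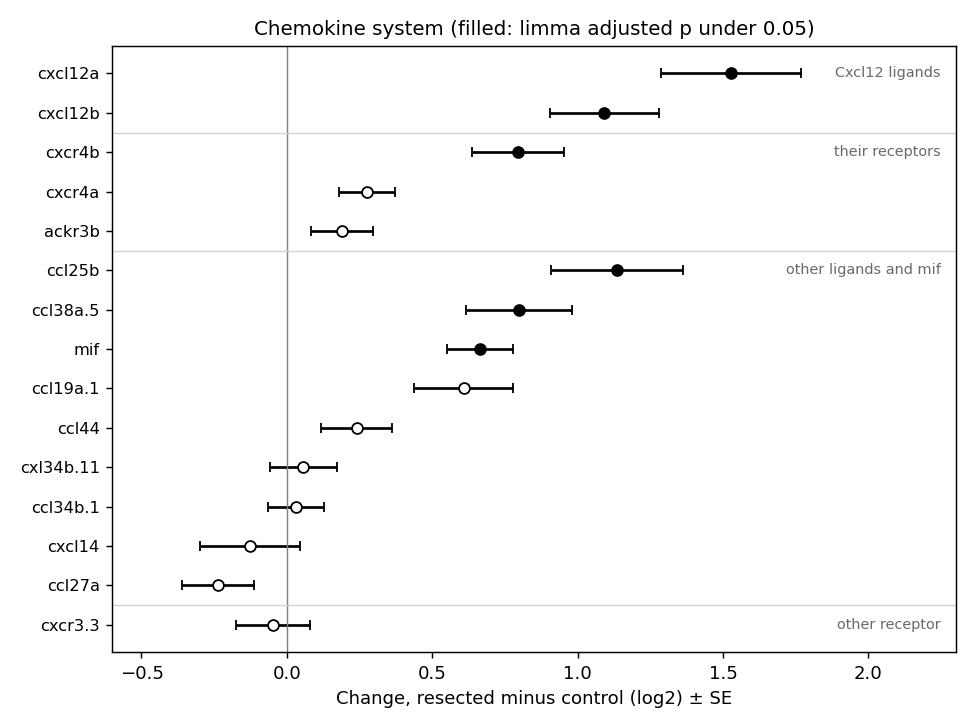
Change (resected minus control, log2, with SE) of the Cxcl12 ligands, their receptors, the 9 other ligands including mif, and the 1 other receptor. Filled points passed the limma test: cxcl12a, cxcl12b, cxcr4b, ccl25b, ccl38a.5 and mif.

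Downstream of the receptor, 32 genes for G protein subunits, RGS proteins, receptor kinases and arrestins were measured. Of these 4 rose and 0 fell (12.5%, against 8.05% of all genes), with a median change of 0.20. Of the inhibitory alpha subunits, the class through which Cxcr4 signals, gnaia rose by 0.74 ± 0.15 (limma adjusted p = 0.0147) and gnai2a by 0.47 ± 0.12 (adjusted p = 0.0428). The others measured, named after their values were seen, did not pass: gnai2b was at 0.39 ± 0.12 (adjusted p = 0.0878), gnai1 at 0.29 ± 0.17 (0.334) and gnao1a, of the same wider class, at -0.49 ± 0.14 (0.0614). The gamma subunit gene gng13b rose by 0.80 ± 0.18 (adjusted p = 0.0289). The gene rgs5a, whose product speeds the switching off of G proteins and which marks pericytes, rose by 0.90 ± 0.13 (adjusted p = 0.0031) and is also on the fibroblast and perivascular marker list. Chosen after their values were seen, the arrestin genes arrb2a and arrb2b, whose products bind the activated receptor, were at 0.07 ± 0.10 and -0.06 ± 0.10. The call for rgs5a held without each array in turn. That for gnai2a was lost without any 1 array but control replicate 2 (0.0557 to 0.128), that for gng13b was lost without resected replicate 1, 2 or 3 (0.0619 to 0.0924), and that for gnaia without control replicate 4 (0.0509). The list's count was 2 without resected replicate 2, resected replicate 3 or control replicate 4.

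Of 45 genes for the kinases, small GTPases and adaptors that carry the signal to the cytoskeleton, 1 rose and 0 fell (2.22%, against 8.05% of all genes; median 0.03). It was rac1a, a small GTPase of cell protrusion, at 0.51 ± 0.13 (limma adjusted p = 0.043). Leaving out control replicate 2 kept its call, and leaving out any other array ended it (adjusted p = 0.0611 to 0.109). The list's count was 0 without any 1 resected array or control replicate 4, and 2 without control replicate 1 or 2.

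A list of regulators, with 24 measured genes, had 6 higher and 1 lower (29.2%, against 8.05% of all genes), beside a median of 0. Like the other lists, it was chosen with earlier results of these data known, so this share is a description only. It mixes genes that act on the ligand or its expression with genes of receptor sorting (usp14, stam, vps4b, sh3gl1a and sh3gl1b) and with cd74a and cd74b. None of the sorting or cd74 genes was called. Others of the list that did not pass, named after their values were seen, included foxc1a at -0.50 ± 0.14 (limma adjusted p = 0.0615). The rest of these were foxc1b at -0.18 ± 0.09 (0.250), nr2f2 at -0.25 ± 0.15 (0.346), hmgb1a at -0.10 ± 0.12 (0.657), hmgb1b at 0.06 ± 0.15 (0.856) and tgfb1a at 0.02 ± 0.10 (0.937). Metalloproteinases on the list, whose mammalian counterparts cut CXCL12, accounted for 4 of the increases. The gelatinase gene mmp2 rose by 1.21 ± 0.14 (limma adjusted p = 0.000674), the membrane-bound mmp14a by 1.18 ± 0.11 (0.000133) and mmp14b by 1.08 ± 0.17 (0.0048), and the gelatinase gene mmp9 by 0.86 ± 0.14 (0.00638). The collagenase gene mmp13a, which was on the leukocyte list and was picked out with its value known, had a change of 0.175 ± 0.37 (0.809). The other called genes belong to oxygen sensing, which in mammals controls both CXCL12 and CXCR4. The prolyl hydroxylase genes egln3 and egln1b rose by 2.59 ± 0.43 (adjusted p = 0.00621) and 0.60 ± 0.13 (0.0219), and epas1a, which encodes a hypoxia-inducible factor, fell by 0.60 ± 0.12 (0.0145). The oxygen-sensing genes that did not pass, named after their values were seen, were hif1ab at -0.03 ± 0.09 (0.855) and epas1b at -0.02 ± 0.25 (0.976). So were arnt2 at -0.11 ± 0.13 (0.647) and hif1al at -0.87 ± 0.28 (0.0924). The call for egln1b ended without control replicate 1 or 4 (adjusted p = 0.0676 at most). The number of genes lower on this list was 2 without resected replicate 1 or control replicate 4.

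The genes most alike to each ligand and to cxcr4b over the 8 arrays were ranked by Pearson's r among 8090 named genes, as a description in which the group difference itself is shared. For cxcl12a the closest was mmp14b (r = 0.994), followed by rrbp1a, which encodes a ribosome-binding protein of the endoplasmic reticulum (0.986), and prr36a (0.982). The metalloproteinase gene mmp14b read 6.90, 7.29, 6.98 and 7.34 in resected arrays, against 6.45, 6.22, 5.66 and 5.86 in control arrays. It ordered the control arrays as cxcl12a did, from replicate 1 through 2 and 4 down to 3. Since mmp14b was picked for its likeness over these same arrays, a like order is favoured by the choice and is no further result. The hydroxylase gene egln3, set beside cxcl12a after its values were seen, read 8.26, 7.93, 9.08 and 8.90 in resected arrays, against 6.96, 6.64, 5.15 and 5.06 in control arrays. Control replicates 1 and 2 were again the high ones, while the order of the resected arrays differed from that of cxcl12a.

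For cxcl12b the closest genes were the protease gene capn1 (r = 0.983), aplp1 (0.977) and the adaptor gene grb2a (0.972). For cxcr4b they were the mitotic checkpoint gene trip13 (0.983), the tropomyosin gene tpma (0.979) and aspn, which encodes a small matrix proteoglycan (0.969). Members were not each other's closest. The coefficient was 0.866 between cxcl12a and cxcr4b, 0.778 between the duplicated ligands, 0.747 between the duplicated receptors and 0.229 between cxcr4b and ackr3b.

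**Figure D5:**
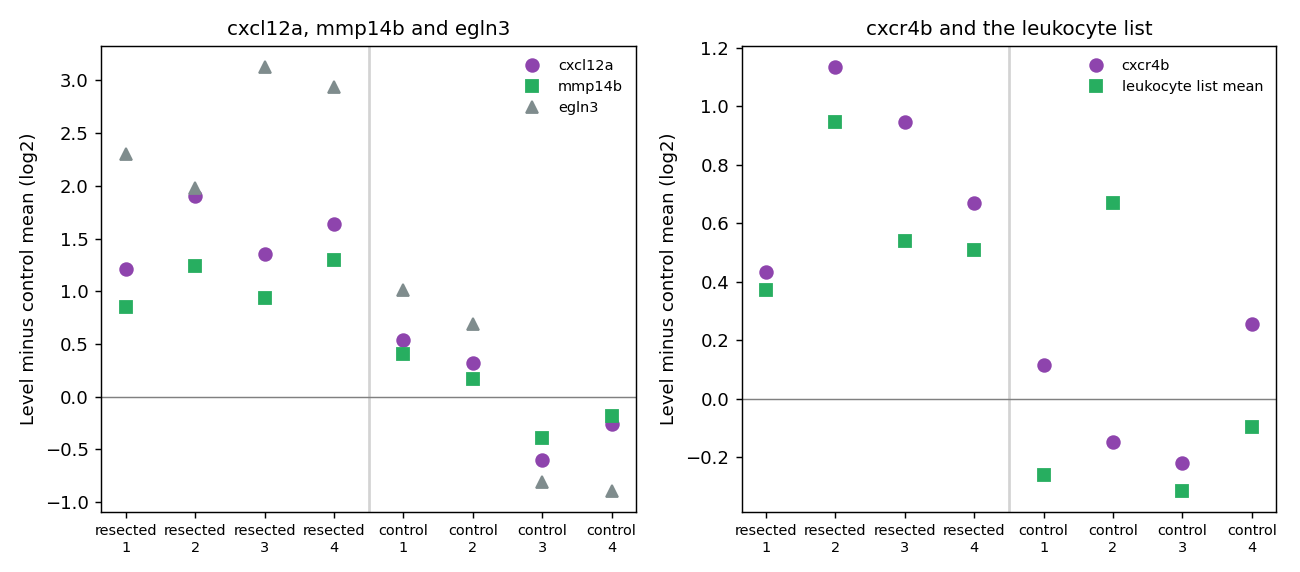
Level in each array minus the mean of the 4 control arrays (log2), resected arrays on the left. The left panel shows cxcl12a with mmp14b, picked for its likeness over these arrays, and egln3, picked after its values were seen. Control replicates 1 and 2 are above 3 and 4 for each of them. The right panel shows cxcr4b and the mean of the leukocyte list. These have the same order in the resected arrays and part in control replicate 2 (-0.149 for cxcr4b and 0.670 for the list).

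Leukocytes are a known site of Cxcr4, so the leukocyte list was set beside cxcr4b, and its part in the change of cxcr4b was not tested. Of its 23 measured genes 3 rose and 0 fell (13%, against 8.05% of all genes). The direction was broader than the calls: 22 of the 23 had a positive change, beside 3622 of all 8793 genes. The median change was 0.64, against -0.04 over all genes. The list's mean level lay between 8.05 and 8.62 in resected arrays and between 7.36 and 8.35 in control arrays. Control replicate 2 stood at 8.35, within the resected range, and was the highest control array for 19 of the 23 genes. Without that array 15 of the 23 rose, and without resected replicate 2 or 3 only 1 did. Over all genes the calls moved the same way, with 648 higher and 435 lower without control replicate 2, 265 and 106 without resected replicate 2, and 283 and 115 without resected replicate 3, against 444 and 264 with all arrays. Among resected arrays the list and cxcr4b had the same order, with replicate 2 highest, then 3, 4 and 1. Among control arrays they parted: in control replicate 2 cxcr4b was at 7, the second lowest of the 4 control readings, 0.149 below the control mean, while the list was 0.670 above its own. Without it the change of cxcr4b was 0.75 ± 0.17 (limma adjusted p = 0.0252). The called genes were ncf1 at 1.61 ± 0.25 (limma adjusted p = 0.00464), spi1b at 0.90 ± 0.225 (0.0398) and the macrophage receptor gene csf1ra at 0.52 ± 0.11 (0.0178). The call for ncf1 held without each array in turn. That for spi1b was lost without any 1 array but control replicate 2 (0.0514 to 0.111), and that for csf1ra without resected replicate 2 or 3 (0.0592 to 0.0624). The pan-leukocyte genes did not pass: ptprc was at 0.77 ± 0.21 (0.0515), lcp1 at 0.81 ± 0.32 (0.1655) and coro1a at 0.81 ± 0.31 (0.1537). The neutrophil genes lyz and mpx were at 0.86 ± 0.49 (0.328) and -0.06 ± 0.09 (0.726).

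The fibroblast and epicardial lists were higher in resected ventricles, as were the ligands and the erythrocyte, thrombocyte, smooth muscle and skeletal muscle lists given below. Their part in the changes of the ligands was not tested. The lists were chosen with earlier results of these data known, so the shares called are a description only. Of 12 fibroblast and perivascular genes 9 rose and 0 fell (75%, against 8.05% of all genes), with a mean level of 7.85 to 8.1 in resected and 6.37 to 6.56 in control arrays. Among control arrays this list was highest in replicate 4 and replicate 3, the arrays in which cxcl12a was lowest, while among resected arrays replicates 2 and 4 were the higher pair for both. Of 14 epicardial genes 6 rose and 0 fell (42.9%), with a mean level of 9.04 to 9.20 in resected and 8.49 to 8.54 in control arrays. Those called were clu, tgm2b, anxa2a, aldh1a2, krt4 and krt18a.1. Transcription factor genes of the list did not pass: tbx18 was at 0.21 ± 0.09 (limma adjusted p = 0.213), tbx1 at 0.13 ± 0.09 (0.428) and wt1a at -0.14 ± 0.09 (0.359). Nor did the rest of the list, named after their values were seen. These were krt8 at 0.23 ± 0.09 (0.165), cavin1b at 0.26 ± 0.10 (0.144), cav1 at 0.06 ± 0.08 (0.72), podxl at -0.15 ± 0.12 (0.475) and lxn at -0.18 ± 0.25 (0.703). The epicardial genes tcf21 and wt1b could not be matched to a probe set. Of 16 endothelial genes 1 rose and 1 fell (12.5%), and the mean level overlapped, at 6.58 to 6.70 in resected and 6.55 to 6.77 in control arrays. The higher gene was cldn5a, at low means of 3.90 in resected and 3.48 in control ventricles (limma adjusted p = 0.0145). The lower was gata2a at -0.44 ± 0.11 (0.040). The endothelial receptor gene kdrl was at -0.41 ± 0.15 and did not pass (0.126). Without resected replicate 3 the 1 higher endothelial gene was lost, and the number lower was 2 without control replicate 2, 1 without control replicate 4 and 0 without any 1 of the other arrays.

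The tissue label was checked against heart muscle markers: myl7 was at 13.99 ± 0.08 in resected and 14.04 ± 0.08 in control ventricles (SD, n = 4 each). Against 8.05% of all genes called, 5.05% higher and 3% lower, cardiomyocyte genes counted 2 higher and 1 lower of 16 (18.8% called). Erythrocyte genes counted 8 higher of 16 (50%), thrombocyte genes 2 of 7 (28.6%), smooth muscle genes 4 of 8 (50%) and fast skeletal muscle genes 10 of 20 (50%), with 0 lower in these 4 lists (1 lower skeletal muscle gene without resected replicate 4 or control replicate 2). The smooth muscle calls were tagln, tagln2, tpm1 and mylka, while acta2 was at -0.07 ± 0.155 (limma adjusted p = 0.81) and myh11a could not be matched to a probe set. The thrombocyte calls were fn1b and f13a1b, while itga2b was at 0.04 ± 0.17 (0.916). The 2 higher cardiomyocyte genes became 1 without any 1 array but control replicate 2, and the 1 lower became 0 without any 1 array. Of 8 lymphocyte genes limma called 0, with 2 at an unadjusted p under 0.05. As a sign of RNA quality, the 3' minus 5' difference of control transcripts was read. For actin (acta1) it was -1.74 to -1.46 in resected and -2.30 to -1.98 in control arrays (exact permutation p = 0.0286, two-sided, the smallest possible). For GAPDH it was 0.80 to 1.05 in resected and 0.77 to 1.07 in control arrays (exact permutation p = 0.771). The 5' actin probe set was the brighter in every array, so the actin difference is no plain reading of RNA quality. Whether RNA quality had a part in the changes above was not tested.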

How the data were processed

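Deposited values are log2 expression. For their making, affy and RMA (background correction, quantile normalization and summary of probes) are named in the submitters' processing notes, without versions. Genome build and annotation release: not given in the sources used here. Precision is limited by the number of arrays. The labels describe the pools as biological replicates. Of 15617 probe sets, 115 manufacturer controls were left out. Symbols came from the platform annotation, updated by Entrez ID through the GRCz12tu gene table (10795 probe sets with 1 symbol, 135 with several, 4572 with none). A gene was represented by its probe set with the highest mean. Probes can also bind close duplicates, so the copy measured is uncertain for duplicated genes.

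The 2 groups were compared by limma 3.58.1 (R 4.3.3), two-sided, with p-values adjusted over all 15502 probe sets. In 10 simulated draws, with 200 planted changes and independent normal noise for each probe set, it recovered 51.2% of log2 changes of 0.5 and 91.4% of those of 1. In these draws 4.7% of calls were false. Shifts shared by many genes of an array were not simulated, so this is not the rate of false calls in the real arrays. The 200 planted changes are also a smaller share of the 15502 probe sets than the 8.05% of genes called in the real arrays. The adjustment depends on that share, so the recovered percentages hold for the simulated setting only. Differences between genes were tested by exact permutation. Members and lists were chosen with earlier results of these data known. Named genes are all members, up to 6 called genes per pathway list, short lists in full and the 3 genes most alike to a member. The same alternatives were applied to the marker lists, the other named genes and the second cxcl12a probe set after seeing the data.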

Additional observations from a re-analysis of the deposited data

How the results depend on the processing

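Over 9 alternative settings and 8 left-out arrays, both ligands kept their direction and their call, and cxcr4a and ackr3b stayed short of the threshold. The exceptions were cxcr4b without resected replicate 3 (given above; range 0.68 to 0.92 over the left-out arrays) and the fit without moderation of the variance, 1 of 10 settings. In that fit the calls for cxcl12a (1.53, adjusted p = 0.0706, limma), cxcl12b (1.09, 0.0806) and cxcr4b (0.79, 0.101) were lost, so that 0 of 5 genes were called, while 4 had an unadjusted p under 0.05. It also called 0 other ligands, 1 G protein gene, 0 migration genes, and 2 higher and 0 lower genes on the list of regulators. Calls were fewer over the whole array too: this fit called 146 of all 8793 genes higher and 55 lower, against 444 and 264 in the main fit. The filter at the median left cxcr4a out. With array weights 2 migration genes were higher, and with further quantile normalization 0. Called genes with an array left out numbered 1 to 4 higher for other ligands, 2 to 6 higher and 0 to 1 lower for G proteins, 0 to 2 higher for migration, and 1 to 2 lower for the list of regulators. The cxcl12a gain over ackr3b was 1.07 to 1.5 with an array left out, where 4 against 3 arrays cannot give an exact permutation p below 0.0571; the actin 3' minus 5' difference was 0.49 to 0.60. For cxcr4b minus cxcr4a limma gave 0.52 without and with a replicate block, past the threshold both times, with the limit given above for limma on the pairs. Same-numbered arrays correlated at -0.16 to 0.137 in their deviations from group means, and not every array correlated best with its own number, so the numbers were not taken as pairs. With the replicate block the calls for cxcl12a, cxcl12b and cxcr4b stood (1.53, 1.09 and 0.79; adjusted p = 0.00572, 0.0225 and 0.0389, limma), 1 G protein gene and 1 migration gene were lower, 2 migration genes were higher, and 471 genes were higher and 218 lower, against 444 and 264.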

Other observations

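Of the genes most alike to the receptors that did not pass, those closest to cxcr4a over the 8 arrays were the amino acid transporter gene slc1a4 (r = 0.958), the mitochondrial folate enzyme gene mthfd2 (0.941) and the lipid kinase gene pik3c2b (0.940). Of these mthfd2 rose, by 0.95 ± 0.21 (limma adjusted p = 0.0235), and its call ended without resected replicate 2 or 3 or control replicate 1 (0.0528 to 0.0752). Those closest to ackr3b were irf2bp2a (0.924), maip1 (0.912) and abat (0.891), at changes of 0.08 ± 0.08, 0.27 ± 0.09 and 0.39 ± 0.19 (adjusted p = 0.598, 0.105 and 0.259).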
